A study of Homo sapiens with 9 samples.

Results

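The genes described here are the heat shock proteins and their chaperone relatives in U251 cells, chosen by gene symbol. The rule took the HSPA, HSPB, HSP90A, DNAJA, DNAJB, DNAJC and CCT symbols together with HSPD1, HSPE1, HSPH1 and TCP1, and matched 82 of the 22295 entries in the expression table. Of these, 3 were left out by name, HSPA5, DNAJB9 and DNAJC3, and 79 genes remained. They comprise 14 genes of the HSP70 and HSP110 families, 2 of HSP90, 8 small heat shock proteins, 12 chaperonin genes and 43 J-domain genes (4 DNAJA, 11 DNAJB and 28 DNAJC). All 79 are protein-coding in GENCODE v29, and 1 of them, DNAJC25-GNG10, is a readthrough of neighbouring genes. The group is not purely cytosolic: 8 members were assigned to the endoplasmic reticulum (such as DNAJB11 and DNAJC1) and 8 to mitochondria (such as HSPD1, HSPE1 and HSPA9). The assignment came from textbook knowledge, was made after the values had been seen and may be incomplete. Some members, such as HSPB11, a subunit of the transport machinery of cilia, carry the family name without being general chaperones.

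Chaperones bind proteins that are not yet folded or have lost their fold. HSP70 proteins hold short greasy stretches and work in an ATP cycle, in which J-domain proteins deliver the client and start ATP hydrolysis, and HSP110 proteins and BAG-domain proteins exchange the nucleotide and release it. HSP90 finishes kinases and steroid receptors with the help of co-chaperones, small heat shock proteins keep unfolded proteins soluble without ATP, and the chaperonin TRiC, a double ring of CCT subunits, encloses actin and tubulin while they fold. Heat shock factor HSF1 switches on many of these genes under stress, and tumour cells, glioma included, are known to run at high chaperone levels.

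U251 is an established human glioblastoma line. The 9 RNA-seq libraries fall into 3 groups of 3: sh-Luci-3d, cells infected for 3 days with a control lentivirus against luciferase; sh-Ptbp1-3d, cells infected for 3 days with a lentivirus carrying an sh-RNA against PTBP1, a splicing repressor; and sh-Ptbp1-7d, the same infection at 7 days. The methods describe a single sh-RNA taken forward against PTBP1, an mCherry marker on the virus, and a change after infection to a neuronal induction medium with N2, B27, forskolin and dorsomorphin. No sh-Luci library of day 7 was analysed here, so a longer knockdown, more days in culture and more time in the induction medium cannot be told apart in any comparison with sh-Ptbp1-7d.

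The values are FPKM, fragment counts divided by transcript length and by library size, so levels can be compared between genes, and the sequencing depth behind them is unknown. PTBP1 itself was at 115.7 FPKM in sh-Luci-3d, 63.9 in sh-Ptbp1-3d and 50.5 in sh-Ptbp1-7d (group means). Among the glioma markers, VIM was at 4168, 4381 and 1169 FPKM and CD44 at 182, 166 and 62.3 FPKM in the same order, while SOX2 was at 105.7, 124.5 and 144.8 FPKM and passed as higher in sh-Ptbp1-7d against sh-Luci-3d (limma adjusted p = 0.00184). S100B was at 0.121, 0.115 and 0.797 FPKM and passed as higher at day 7 against either day 3 group (adjusted p = 0.00202 and 0.00153), and GFAP was below 1 FPKM on average in each group. Of the neuronal markers, MAP2 was at 22.4, 20.3 and 38.9 FPKM and TUBB3 at 261, 317 and 118 FPKM. STMN2 was at 11.5 FPKM in sh-Ptbp1-3d replicate 3 and listed at 0 in the other 8 libraries. The same library held 2.14 FPKM of the neuronal marker DCX and 15.0 FPKM of the glioma marker FABP7. In the other 8 libraries these were at most 0.0346 and 2.19 FPKM. The cycling markers MKI67, TOP2A and CCNB1 fell from day 3 to day 7 of the knockdown, 3 of 3, from 17.7 to 7.99, from 54.5 to 32.9 and from 85.6 to 30.5 FPKM. Of the blood markers, PTPRC, CD3E and HBB were below 0.1 FPKM in all 9 libraries, and CD68 was at 10.1, 10.5 and 16.3 FPKM. sh-Luci-3d replicate 3 stood apart from its group: its mean absolute log2 difference to the other sh-Luci-3d libraries was 0.376 and 0.377 over all genes tested, against 0.237 to 0.310 for the other pairs within a group. In bulk RNA, fewer cells of a type and less RNA per cell cannot be told apart.

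Most of these chaperones were abundant. By their mean over the 9 libraries, 10 members were at 100 FPKM or above, 33 between 10 and 100, 18 between 1 and 10, 10 between 0.1 and 1, and 8 below 0.1. The 79 members together summed to 3976, 4009 and 4006 FPKM in sh-Luci-3d, to 4026, 4082 and 3881 in sh-Ptbp1-3d, and to 3257, 3339 and 3371 in sh-Ptbp1-7d. Their share of all FPKM went from 0.998 to 1.01% in sh-Ptbp1-3d down to between 0.886 and 0.909% in sh-Ptbp1-7d, without overlap (exact permutation test, two-sided p = 0.1, the smallest p that 3 libraries against 3 allow). The 4 most abundant members, HSPB1, HSP90AB1, HSPA8 and HSP90AA1, made up 46.7 to 47.1% of the sum in sh-Ptbp1-3d and 36.5 to 37.9% in sh-Ptbp1-7d.

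**Figure D1:**
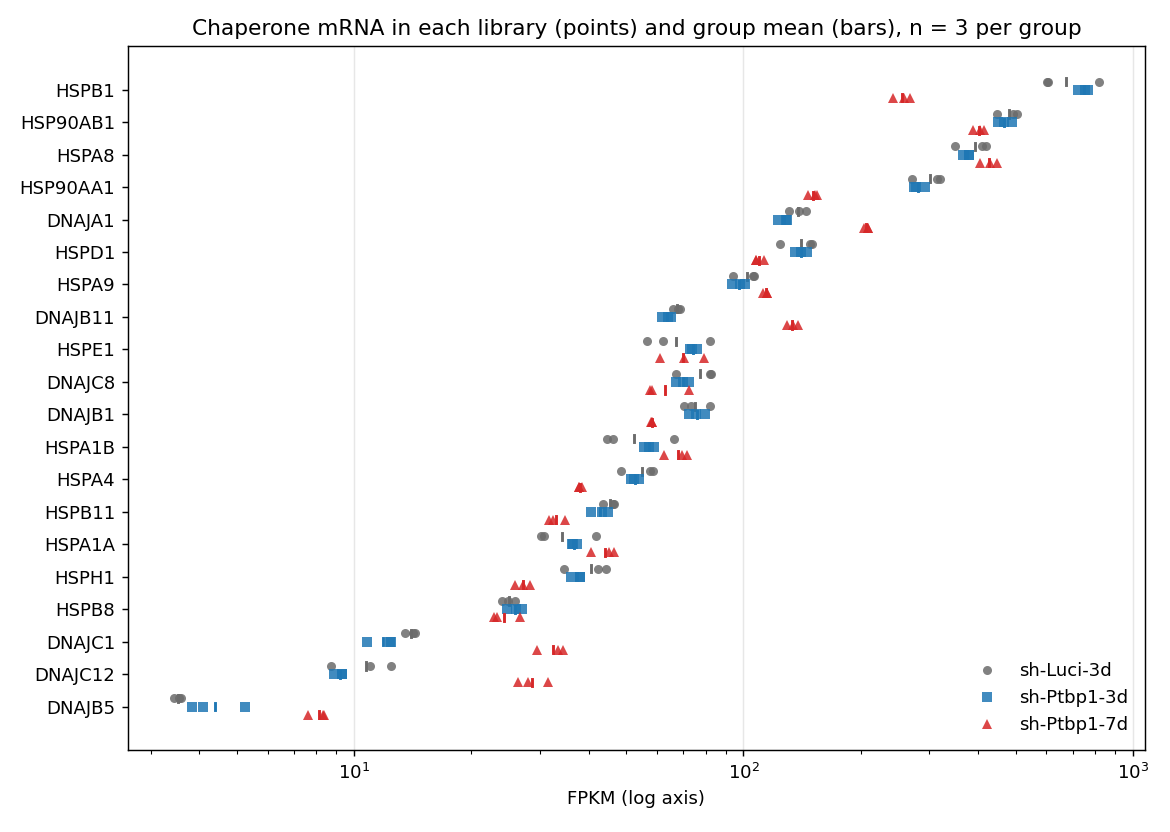
Each point is the FPKM of 1 library (log axis) and each vertical bar a group mean of 3, for the control and both knockdown groups, with a row for each of 20 chaperone genes ordered by level. The sh-Ptbp1-7d points of HSPB1 (242 to 267 FPKM) lie far left of the other groups, and those of DNAJB11, DNAJC1 and DNAJC12 far right.

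The first comparison asks what the knockdown did to these genes at the early time, sh-Ptbp1-3d against sh-Luci-3d. No chaperone gene passed the test. Of the 79 members, 71 had a mean of at least 0.1 FPKM and were tested by limma on log2(FPKM + 0.1) among 15551 genes, with Benjamini-Hochberg adjustment over all of them. At a false discovery rate of 0.05, 0 of 71 members passed, against 0.0322% of all genes tested (5 genes). The lowest adjusted p of a member was 0.62, for DNAJC1, and 3 members, DNAJC1, DNAJC22 and DNAJB5, had an unadjusted p under 0.05 (background 7.24%). Groups stood apart, with no overlap of libraries, for 7 members (background 10.8%). For the 61 members with a mean of at least 1 FPKM the log2 fold changes ran from -0.24 to 0.29, and all 61 of their 95% intervals lay within a 2-fold change in either direction (bounds -0.56 to 0.61). The median log2 fold change was -0.02 over the members and 0.01 over all genes tested.

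The day 3 count depended on 1 library. Without sh-Luci-3d replicate 3, 3 members passed: HSPB1 at log2 fold change 0.31 (limma adjusted p = 0.0268), HSPA1B at 0.33 (adjusted p = 0.0273) and DNAJC2, a ribosome-bound J-domain protein, at -0.33 (adjusted p = 0.0453), while 986 of all genes tested passed in that fit. Leaving out sh-Ptbp1-3d replicate 3 as well, the library with STMN2, left 1 member, HSPB1, at 0.34 (adjusted p = 0.0472) and 582 genes in all. For HSPB1, the sh-Luci-3d libraries were at 604, 601 and 817 FPKM and the sh-Ptbp1-3d libraries at 756, 765 and 724 FPKM. Only the third sh-Luci-3d library reached above the knockdown libraries.

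From sh-Ptbp1-3d to sh-Ptbp1-7d the chaperone genes moved in both directions, and the balance differed by class. At a false discovery rate of 0.01, 34 of the 71 tested members passed, 16 higher and 18 lower, against a background of 35.8% of all genes tested (20.3% higher and 15.5% lower). The calls split between the J-domain genes and the rest. Of 40 tested J-domain genes 15 rose, 2 fell and 23 did not pass, with a median log2 fold change of 0.29. Of the 31 other tested members 1 rose and 16 fell, with a median of -0.38, and over all genes tested the median was 0.09. The 16 include all 8 TRiC subunits. The 13 tested HSP70 and HSP110 genes had a median of 0.23, with 1 higher, 4 lower and 8 not passing. The changes were mostly small: 4 members also passed a 2-fold change, DNAJC12, DNAJC1 and DNAJB11 higher and HSPB1 lower, where 14.2% of all genes tested did (8.31% higher and 5.9% lower). No overlap of libraries was seen for 53 members (background 62.3%). Comparisons with sh-Ptbp1-3d share those libraries, so the day 3 and day 7 values of a gene are not independent.

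**Figure D2:**
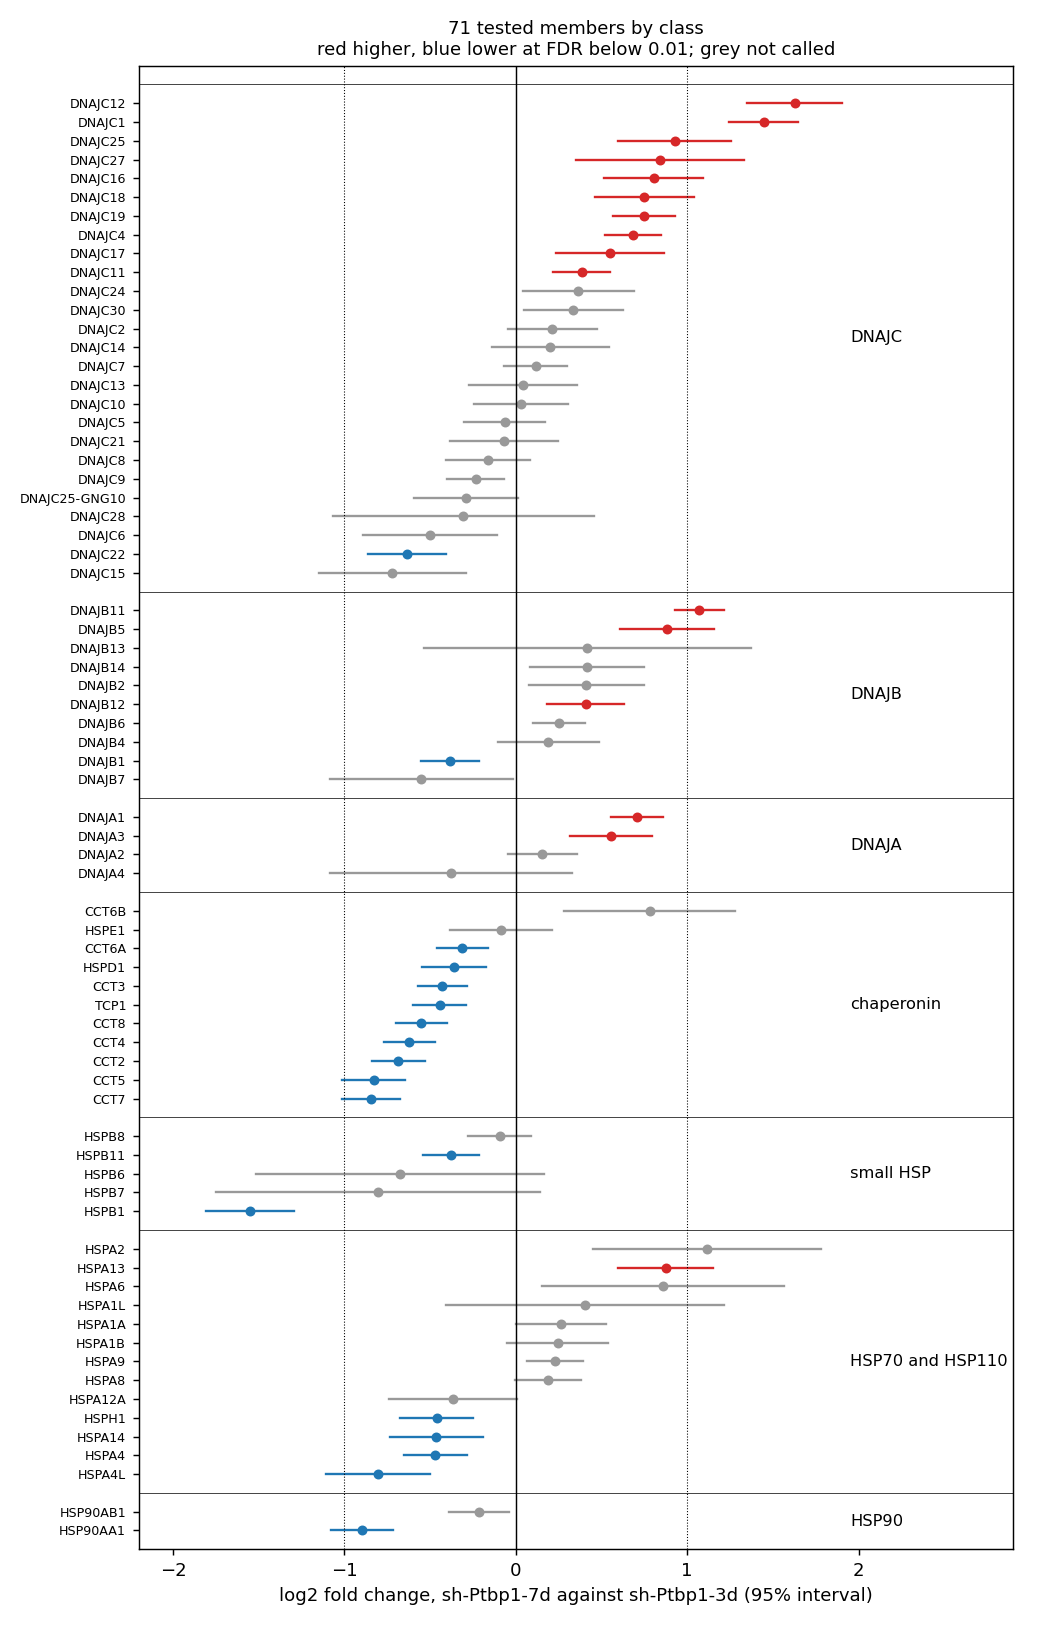
The horizontal axis gives the log2 fold change from sh-Ptbp1-3d to sh-Ptbp1-7d and its 95% interval from limma for each of the 71 tested members, 1 row a gene, by class, with red for higher, blue for lower and grey for not passing at a false discovery rate of 0.01. Dotted lines mark a 2-fold change; 15 J-domain genes are red, and all 8 TRiC subunits (CCT2, CCT3, CCT4, CCT5, CCT6A, CCT7, CCT8 and TCP1) are blue.

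The small heat shock protein HSPB1 (HSP27), which holds unfolded proteins and binds the actin cytoskeleton, had the largest fall. The gene lies at chr7:76302544-76304295 on the plus strand (GRCh38, GENCODE v29). In sh-Ptbp1-7d its libraries were at 242, 258 and 267 FPKM, below every earlier library, the lowest of which was at 601 FPKM. From a mean of 748 ± 21.5 (SD, n = 3) in sh-Ptbp1-3d to 256 ± 13 (SD, n = 3) it fell by 1.55 on the log2 scale (standard error 0.117, limma adjusted p = 1.88e-06). It had been the most abundant member at day 3 and was the third most abundant, after HSPA8 and HSP90AB1, at day 7.

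The other small heat shock proteins were lower in level. HSPB8, which works with BAG3 in the removal of misfolded proteins, measured 27.0, 26.0 and 24.6 FPKM in sh-Ptbp1-3d, then 22.9, 23.3 and 26.6 FPKM at day 7, and the groups overlapped. Its log2 fold change was -0.09 (95% interval -0.28 to 0.09, limma adjusted p = 0.368), and it changed sign in TPM. The ratio of HSPB1 to HSPB8 within a library went from between 28.0 and 29.4 to between 10.04 and 11.1. HSPB11 fell from 44.8, 43.2 and 40.6 to 32.3, 31.7 and 34.9 FPKM, log2 fold change -0.38 (adjusted p = 0.00162), a call lost without sh-Ptbp1-3d replicate 1 or sh-Ptbp1-7d replicate 2 (adjusted p = 0.0108 and 0.0104). HSPB6 and HSPB7, best known from muscle, were below 1 FPKM in all libraries and did not pass, and HSPB2, HSPB3 and HSPB9 were under the filter of 0.1 FPKM.

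Of the pair of cytosolic HSP90 genes, only the stress-inducible HSP90AA1 passed. The sh-Luci-3d libraries held 315, 319.9 and 270.2 FPKM of it, against 277, 293 and 274 FPKM in sh-Ptbp1-3d, then 153, 155 and 146 FPKM at day 7. The day 7 libraries were all far below the others, a fall by 0.90 on the log2 scale (standard error 0.082, limma adjusted p = 7.99e-06). HSP90AB1, the constitutive gene, measured 466, 488 and 449 FPKM in sh-Ptbp1-3d, then 388, 405 and 416 FPKM at day 7. These libraries did not overlap either, but the log2 fold change of -0.22 missed the threshold (adjusted p = 0.0431) and turned to 0.29 under quantile normalization. Without sh-Luci-3d replicate 3, which enters only the shared estimate of the spread, it passed (adjusted p = 0.00925). That fit passes more genes of every kind, 6747 of all genes tested against 5570 in the main fit, here and wherever this library is left out below. The ratio of HSP90AA1 to HSP90AB1 stood at 0.595, 0.600 and 0.611 in sh-Ptbp1-3d, then 0.393, 0.382 and 0.351 at day 7. The ratio does not change when all genes of a library are scaled by a common factor, which quantile normalization does not do. The groups did not overlap (exact permutation test, two-sided p = 0.1).

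Among 13 tested HSP90 co-chaperones 5 fell and 1 rose, with a median log2 fold change of -0.32, where 15.5% of all genes tested fell and 20.3% rose. UNC45A, a myosin chaperone, fell by 0.94 on the log2 scale, SUGT1, which links HSP90 to kinetochore assembly, by 0.81, the kinase adaptor CDC37 by 0.59, STIP1, which bridges HSP70 and HSP90, by 0.56, and FKBP5, a steroid receptor partner, by 0.52. The one that rose was CDC37L1, at 0.73. The ATPase activator AHSA1 was at 50.2 FPKM in sh-Ptbp1-3d, then 50.7 FPKM at day 7 (adjusted p = 0.88).

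The constitutive HSP70 did not pass. HSPA8 measured 379, 379 and 367 FPKM in sh-Ptbp1-3d, then 406, 431 and 448 FPKM at day 7, against 410.1, 419 and 350.2 FPKM in sh-Luci-3d. The day 7 libraries were above those of sh-Ptbp1-3d but overlapped those of sh-Luci-3d, and the log2 fold change against sh-Ptbp1-3d was 0.19 (95% interval -0.00 to 0.38, limma adjusted p = 0.0921). Quantile normalization moved it to 0.69 (adjusted p = 0.000104). At day 7 HSPA8 was the most abundant of the 79 genes. HSPA9 (mortalin), the HSP70 of the mitochondrial matrix, was at 97.9, 101 and 93.2 FPKM and then at 113, 115 and 115 FPKM, without overlap. Yet its log2 fold change of 0.23 did not pass (adjusted p = 0.0238). It passed in 4 of 20 alternatives, among them the one without sh-Luci-3d replicate 3 (adjusted p = 0.00276).

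The stress-inducible HSP70 pair lies side by side on chromosome 6 (HSPA1A at chr6:31815464-31817946 and HSPA1B at chr6:31827735-31830255, both on the plus strand). HSPA1A measured 37.4, 36.2 and 36.5 FPKM in sh-Ptbp1-3d, then 46.6, 45.1 and 40.6 FPKM at day 7. HSPA1B was at 58.9, 55.5 and 57.2 FPKM and then at 71.7, 69.4 and 62.5 FPKM. As 72.6% of the 50-base stretches of HSPA1A also occur in HSPA1B, the division of reads between the genes is uncertain, and their sum was tested as well. The sum had log2 fold change 0.25 (95% interval -0.03 to 0.53, limma adjusted p = 0.124) against sh-Ptbp1-3d and of 0.39 (adjusted p = 0.0264) against sh-Luci-3d, neither past the threshold of 0.01. The control group was split by sh-Luci-3d replicate 3, whose HSPA1A and HSPA1B were at 41.9 and 66.3 FPKM, where the other control libraries were at 30.1 and 30.8 FPKM and at 44.6 and 46.3 FPKM. Without that library both genes passed, HSPA1A at 0.26 (adjusted p = 0.0049) and HSPA1B at 0.24 (adjusted p = 0.00757) against sh-Ptbp1-3d, and at 0.53 (adjusted p = 0.000154) and 0.58 (adjusted p = 9.59e-05) against sh-Luci-3d. Over all genes tested, that fit passed 6747 and 6207 genes in these comparisons, against 5570 and 5540 in the main fit.

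The HSP110 genes, whose products exchange the nucleotide of HSP70, fell, 3 of 3, where 15.5% of all genes tested fell. HSPA4 went from 52.5, 54.0 and 51.3 to 38.4, 37.7 and 37.7 FPKM, log2 fold change -0.47 (limma adjusted p = 0.00081). HSPH1 went from 36.1, 38.0 and 38.1 to 27.2, 28.3 and 26.0 FPKM, at -0.46 (adjusted p = 0.00234), and HSPA4L from 5.91, 5.996 and 5.16 to 3.45, 3.17 and 3.02 FPKM, at -0.80 (adjusted p = 0.000675). None of these groups overlapped, although the HSPH1 call was lost in TPM and when sh-Ptbp1-3d replicate 2 or 3 or sh-Ptbp1-7d replicate 3 was left out (adjusted p = 0.0102 to 0.0161). The summed HSP110 level went from 0.249 to 0.259 of HSPA8 at day 3 of the knockdown to between 0.149 and 0.170 at day 7.

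Other HSP70 relatives split. HSPA13, a microsomal HSP70-like protein, was the only member outside the J-domain genes that rose, from 8.90, 9.40 and 10.1 to 18.2, 18.0 and 16.2 FPKM (log2 fold change 0.88, limma adjusted p = 0.000201). HSPA14, which acts at the ribosome, fell at -0.46 (adjusted p = 0.0089), but leaving out any one of the 6 libraries compared ended the call. HSPA6 is best known from severe stress and HSPA2 from the testis. HSPA6 was at 0.102, 0.184 and 0.09997 FPKM and then at 0.295, 0.418 and 0.235 FPKM (log2 fold change 0.86, adjusted p = 0.0444), so it stayed below 1 FPKM throughout. Its reads can also match the pseudogene HSPA7, so its level is uncertain. HSPA2 had a log2 fold change of 1.12 that did not pass (adjusted p = 0.0104). It passed in 5 of 19 alternatives, among them those without sh-Luci-3d replicate 2 or 3 (adjusted p = 0.00328 and 0.00733). Of 11 nucleotide exchange factors and partners of HSP70, 4 fell and 1 rose (median -0.25), where 35.8% of all genes tested passed: the ubiquitin ligase STUB1 fell by 0.90 on the log2 scale, BAG2 by 0.55, ST13 by 0.51 and BAG6 by 0.49, and the mitochondrial GRPEL2 rose by 0.51.

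The mRNAs of the cytosolic chaperonin subunits fell, by unequal amounts. Each of the 8 passed as lower at day 7 (background 15.5%) and none overlapped with its day 3 knockdown level. CCT7 measured 131, 129 and 120.45 FPKM in sh-Ptbp1-3d, then 70.2, 70.8 and 70.1 FPKM at day 7, the largest fall at -0.85 (limma adjusted p = 7.49e-06). CCT5 went from 76.1, 77.9 and 67.9 to 38.6, 42.3 and 43.9 FPKM, at -0.83 (adjusted p = 1.49e-05). The smallest fall was that of CCT6A, from 119.6, 121 and 112 to 97.7, 91.3 and 94.4 FPKM, at -0.31 (adjusted p = 0.00285). CCT6A was also the subunit whose call was lost under TPM, under quantile normalization and without sh-Ptbp1-3d replicate 1 or 2 or sh-Ptbp1-7d replicate 2 (adjusted p = 0.016 to 0.0326).

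Between these lay CCT2 at -0.69, CCT4 at -0.62, CCT8 at -0.55, TCP1 at -0.44 and CCT3 at -0.43, and the median over the 8 subunits was -0.59 against 0.09 over all genes tested. At day 3 the same subunits had differed from sh-Luci-3d by -0.05 to 0.08. Summed over the complex, the sh-Luci-3d libraries reached 785, 781 and 773 FPKM, against 798, 807 and 757 FPKM in sh-Ptbp1-3d, then 524, 536 and 540.0 FPKM at day 7, where the mean was 67.7% of that of sh-Ptbp1-3d. The subunits of TRiC occur in equal number in the ring, but their mRNA levels were unequal throughout, with CCT3 about the highest and CCT4 among the lowest. The ratio of the highest to the lowest subunit was 2.42 to 2.53 at day 3 of the knockdown and 2.81 to 2.95 at day 7. The share of CCT6A in the sum went from 14.9 to 17.7%, and that of CCT7 from 16.1 to 13.2%.

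**Figure D3:**
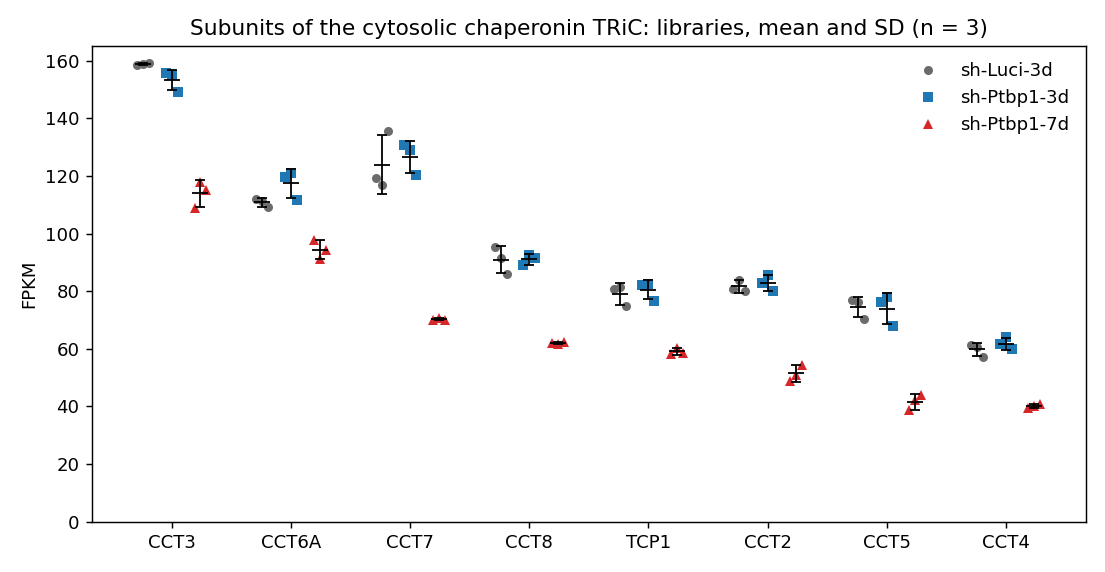
Points give the FPKM of each library (linear axis from 0) for the 8 subunits of TRiC, with the mean and SD of 3 libraries a group as horizontal lines and error bars. In each subunit the sh-Ptbp1-7d libraries lie below both day 3 groups, by most in CCT7 (70.1 to 70.8 FPKM against 120.45 to 131 FPKM in sh-Ptbp1-3d).

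Partners bring clients to the chaperonin. Of 9 tested genes of prefoldin and the phosducin-like proteins, 1 fell, PDCL3 at -0.58 (limma adjusted p = 0.0018), 0 rose, and the median was -0.19, against a background of 35.8% passing. CCT6B, a testis variant of CCT6A, was at 1.24, 1.26 and 1.93 FPKM and then at 1.89, 2.895 and 3.07 FPKM (log2 fold change 0.78, adjusted p = 0.0144), and the groups overlapped. It passed in 4 of 20 alternatives, among them those without sh-Ptbp1-3d replicate 3 or sh-Ptbp1-7d replicate 1 (adjusted p = 0.00889 and 0.00523). TUBB3, a tubulin and so a client of TRiC, fell by 1.42 on the log2 scale in the same libraries. The 3 cycling markers fell with the chaperonin, and their part in its change was not tested.

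In the mitochondrial chaperonin, 1 gene of the pair passed. HSPD1 (HSP60) and its lid HSPE1 (HSP10) overlap on chromosome 2, HSPD1 at chr2:197486581-197516737 on the minus strand and HSPE1 at chr2:197499994-197503457 on the plus strand. Their RefSeq start sites lie head to head, at 197500274 and 197499840 for HSPD1 and at 197500379 for HSPE1. HSPD1 measured 141, 146 and 136 FPKM in sh-Ptbp1-3d, then 108, 113 and 108 FPKM at day 7, log2 fold change -0.36 (limma adjusted p = 0.00477). This call is fragile: it was lost in TPM and quantile normalization, with no filter, with no intensity trend, and whenever any of the 6 libraries was left out (adjusted p = 0.011 to 0.0385). HSPE1 was at 73.6, 75.8 and 73.0 FPKM and then at 79.0, 70.4 and 60.9 FPKM, with the first overlapping the second, log2 fold change -0.09 (95% interval -0.39 to 0.21, adjusted p = 0.615) that changed sign in TPM. The ratio of HSPE1 to HSPD1 was 0.523, 0.521 and 0.537 in sh-Ptbp1-3d, then 0.732, 0.623 and 0.566 at day 7, while the sh-Luci-3d libraries spread over 0.415, 0.381 and 0.663.

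Of the J-domain genes, the abundant cytosolic pair separated. DNAJA1, a farnesylated partner of HSPA8 at chr9:33025211-33039907 on the plus strand, held 131, 145 and 139 FPKM in the control libraries, 129.7, 122 and 128 FPKM in sh-Ptbp1-3d, then 203, 208 and 208 FPKM at day 7. All 3 day 7 libraries exceeded all 6 earlier ones, and it rose by 0.71 on the log2 scale (standard error 0.069, limma adjusted p = 1.25e-05). DNAJB1 (HSP40), the classical stress-inducible J-domain protein, went the other way, from 79.8, 72.5 and 75.3 to 58.1, 58.4 and 58.0 FPKM, at -0.38 (adjusted p = 0.00191, or 0.0122 without sh-Ptbp1-3d replicate 1). The ratio of DNAJA1 to DNAJB1 was 1.62, 1.69 and 1.70 in sh-Ptbp1-3d, then 3.50, 3.57 and 3.59 at day 7. DNAJA2, the paralog of DNAJA1, had log2 fold change 0.16 (95% interval -0.05 to 0.36, adjusted p = 0.181), with overlapping groups.

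**Figure D4:**
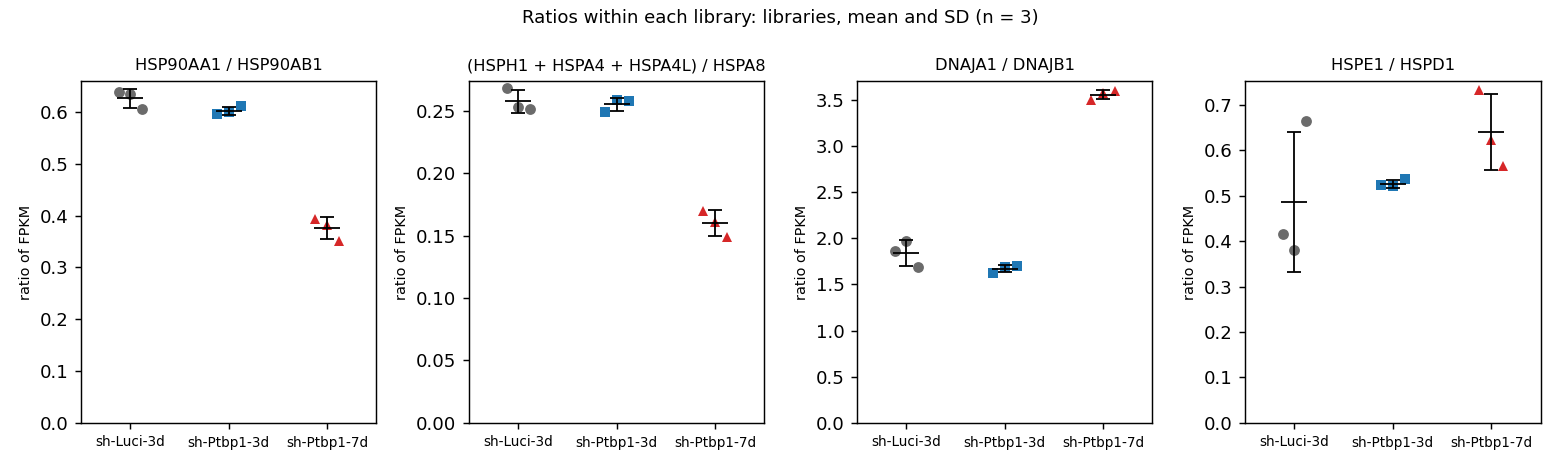
Ratios of FPKM within each library, with the mean and SD of 3 libraries a group, for HSP90AA1 to HSP90AB1, the summed HSP110 genes to HSPA8, DNAJA1 to DNAJB1, and HSPE1 to HSPD1 (linear axes from 0). In the first 3 panels the sh-Ptbp1-7d libraries stand clear of both day 3 groups, and in the fourth the sh-Luci-3d libraries spread over nearly the whole range.

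The J-domain genes that at least doubled were 3. DNAJC12, a partner of the aromatic amino acid hydroxylases at chr10:67796665-67838166 on the minus strand, measured 8.90, 9.30 and 9.33 FPKM in sh-Ptbp1-3d, then 26.4, 27.9 and 31.5 FPKM at day 7, log2 fold change 1.63 (standard error 0.125, limma adjusted p = 2.16e-06). DNAJC1, which docks the lumenal HSP70 at the membrane of the endoplasmic reticulum, went from 12.4, 12.3 and 10.8 to 29.5, 34.4 and 33.4 FPKM, at 1.45 (adjusted p = 4.99e-07). DNAJB11, its soluble lumenal counterpart at chr3:186567403-186585800 on the plus strand, went from 61.7, 65.0 and 64.0 to 134, 129 and 138 FPKM, at 1.07 (adjusted p = 3.89e-07). In none of the 3 did a day 7 library come near a day 3 library.

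Most of the other J-domain genes that rose were at low or moderate level. DNAJB5, related to DNAJB1, rose by 0.88 on the log2 scale, from 4.08, 3.83 and 5.23 to 8.37, 8.33 and 7.62 FPKM (limma adjusted p = 0.000175). DNAJC25 rose by 0.93, DNAJC16 by 0.80, DNAJC18 by 0.75, DNAJC4 by 0.68 and DNAJB12, a membrane protein of the endoplasmic reticulum, by 0.41, the last with a call that was lost in 11 of 20 alternatives. DNAJC17, linked to splicing, at 0.55 and DNAJC27, a RAB-like GTPase, at 0.84 were lost in 12 and 13 of 20. Reads of DNAJC25 can also be placed on the readthrough DNAJC25-GNG10, which holds 14% of its 50-base stretches and had log2 fold change -0.29 (adjusted p = 0.105). Besides DNAJB1, the J-domain gene that fell was DNAJC22, from 7.16, 6.66 and 6.20 to 4.17, 4.53 and 4.09 FPKM, at -0.63 (adjusted p = 0.00046).

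Several well-known J-domain proteins did not pass. DNAJB6, which holds back polyglutamine aggregation, was at 36.4, 36.7 and 34.8 FPKM and then at 41.0, 42.9 and 44.8 FPKM, without overlap. Its log2 fold change of 0.25 had limma adjusted p = 0.0107, next to the threshold. It passed in 6 of 20 alternatives, among them the one without sh-Luci-3d replicate 3 (adjusted p = 0.00313). DNAJC7, which hands clients between HSP70 and HSP90, had 0.12 (95% interval -0.07 to 0.30, adjusted p = 0.268). DNAJC8, a splicing-associated protein and at 69.9 FPKM in sh-Ptbp1-3d the most abundant DNAJC gene, had -0.16 (95% interval -0.41 to 0.08, adjusted p = 0.248). DNAJC5, the cysteine string protein of synaptic vesicles, had -0.07 (adjusted p = 0.638), and DNAJC6, the auxilin that uncoats clathrin in neurons, had -0.50 (adjusted p = 0.0366). Summed over all J-domain genes the level was 746, 740.2 and 724 FPKM in sh-Ptbp1-3d, then 969, 983 and 1006 FPKM at day 7. The summed HSP90 genes went from 743, 781 and 724 to 541, 559 and 562 FPKM.

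The assignment of members to a site in the cell was made after the values had been seen and may be incomplete. The 8 members assigned to the endoplasmic reticulum had 5 that rose (DNAJC1, DNAJB11, HSPA13, DNAJC16 and DNAJB12), 0 that fell, and a median log2 fold change of 0.61. The background was 20.3% higher and 15.5% lower over all genes tested. The other 3, DNAJB14, DNAJC14 and DNAJC10, had 0.42, 0.20 and 0.03. DNAJB14 passed in 3 of 20 alternatives, among them the one without sh-Luci-3d replicate 3 (limma adjusted p = 0.00183). A list of chaperones outside the symbol rule holds several of the same compartment. Of its 12 tested genes, 8 rose and 0 fell, against the same background. Among them were HSPA5 (BiP), the HSP70 of the lumen, at 1.52, DNAJB9, its J-domain partner, at 1.94, HSP90B1, the lumenal HSP90, at 1.01, SERPINH1, the collagen chaperone, at 1.07, and HYOU1, the lumenal HSP110, at 0.79, all with limma adjusted p of at most 9.2e-05. The lumenal HSP70, HSP90 and HSP110 genes rose while the cytosolic HSP90AA1 and HSP110 genes fell in the same libraries. That list had been set up with results of these data known, and its count is a description. The 8 mitochondrial members split, with DNAJA3, DNAJC11 and DNAJC19, a part of the protein import motor, higher at 0.56 (limma adjusted p = 0.00157, or 0.0104 without sh-Ptbp1-3d replicate 3), 0.38 and 0.75, HSPD1 lower, and 4 not passing, where 35.8% of all genes tested passed. Of those 4, DNAJC15 was at -0.72 (limma adjusted p = 0.0101) and passed in 6 of 19 alternatives. TRAP1, the mitochondrial HSP90 and 1 of the 8 that rose in the list above, was at 0.55 (limma adjusted p = 0.000808).

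Against sh-Luci-3d, which shares the day 7 libraries with the comparison above, 35 of 71 members passed at a false discovery rate of 0.01 in sh-Ptbp1-7d, 17 higher and 18 lower, with a background of 35.6% (20.6% higher and 15% lower). Past a 2-fold change were 5, against 14.6% of all genes tested (8.93% higher and 5.68% lower): DNAJC12 at 1.42, DNAJC1 at 1.20, DNAJB5 at 1.18 and HSPA6 at 1.501 higher, and HSPB1 at -1.38 lower. DNAJB5 was at 3.56, 3.45 and 3.59 FPKM in sh-Luci-3d, below the sh-Ptbp1-3d libraries and far below those of sh-Ptbp1-7d, so its 3 groups did not overlap. HSPA6 was at 0.0520, 0.0307 and 0.0523 FPKM in sh-Luci-3d, and its fold change depends on the pseudocount, from 0.33 to 2.56 over the alternatives, and the call was lost without sh-Luci-3d replicate 2 or sh-Ptbp1-7d replicate 2 (limma adjusted p = 0.011 and 0.0143). HSP90AA1 was at -0.99 and DNAJA1 at 0.58. CCT6B passed as higher here, at 0.89 (limma adjusted p = 0.00728), a call lost in 12 of 20 alternatives. DNAJB11, at 0.98, was just under a 2-fold change here. Of TRiC, 7 of 8 subunits were lower, and CCT6A at -0.23 missed the threshold (limma adjusted p = 0.0152). CCT6A passed in 4 of 20 alternatives, among them the one without sh-Luci-3d replicate 3 (adjusted p = 0.00679). The libraries did not overlap for 48 members (background 55.9%).

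HSF1 acts through heat shock elements, inverted repeats of GAA and TTC, and promoters were searched for them to show what the sequences hold. The windows came from RefSeq (GRCh38.p14, 250 bases before to 50 after a start site), which matched 70 of the 79 members. An element of 3 units, GAANNTTCNNGAA or TTCNNGAANNTTC, was searched on both strands, as each of the pair is the reverse complement of the other or of itself, and matches may overlap. It occurred in 7 of the 70 members (10%) and in 0.608% of the 27305 genes with windows. The shorter motif, GAANNTTC or TTCNNGAA, which lies inside the longer one, occurred in 26 of the 70 (37.1%) and in 16.2% of genes. HSP90AB1 has 3 start sites with windows and HSP90AA1 has 2. Their elements lie only in the windows of the start sites at chr6:44247943 and chr14:102087044, from which the positions are counted. The 7 members are shown with 30 bases around each element, 5′ to 3′ on the strand of the gene, with the element in capitals.
HSP90AA1 (chr14:102087111-102087140, minus strand, element from position -88, counted from the start site): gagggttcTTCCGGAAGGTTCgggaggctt
HSP90AB1 (chr6:44247770-44247799, plus strand, from -165): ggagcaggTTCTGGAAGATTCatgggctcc
HSP90AB1 (chr6:44247823-44247852, plus strand, from -112): tgagattgTTCTGGAAGCTTCtggattctg
HSPA8 (chr11:123062345-123062374, minus strand, from -230): gcgagcttGAAAGTTCCAGAAcgctgcggt
HSPA8 (chr11:123062170-123062199, minus strand, from -55): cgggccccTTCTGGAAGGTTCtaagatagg
HSPD1 (chr2:197500061-197500090, minus strand, from -245, by its second start site): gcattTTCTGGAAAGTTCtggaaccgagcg
HSPD1 (chr2:197500059-197500088, minus strand, overlapping the former, from -240): attttctgGAAAGTTCTGGAAccgagcgag
HSPA6 (chr1:161524458-161524487, plus strand, from -74): cggaaaggTTCGCGAAAGTTCgcggcggcg
DNAJB6 (chr7:157336865-157336894, plus strand, from -131): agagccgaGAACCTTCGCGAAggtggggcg
DNAJA1 (chr9:33025268-33025297, plus strand, from position 4 after the start site): gccgggcgGAACTTTCCAGAAcgctcggtg

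The genes that carry this element did not move together. They are not a list of HSF1 targets, as HSPA1A, HSPA1B, HSPB1 and DNAJB1 held only the shorter motif in their windows. From sh-Ptbp1-3d to sh-Ptbp1-7d HSP90AA1 and HSPD1 fell (-0.90 and -0.36), DNAJA1 rose (0.71), and HSP90AB1, HSPA8, DNAJB6 and HSPA6 did not pass (-0.22, 0.19, 0.25 and 0.86). The HSPD1 call was lost in 10 of 20 alternatives. Of all 52 tested genes with the element 13 rose and 8 fell, with a median log2 fold change of 0.06. The window that holds the HSP90AA1 element also holds the letters tataa of a TATA box and is given whole upstream of the start site, because HSP90AA1 fell most among these 7.
HSP90AA1 (chr14:102087045-102087294, minus strand, 250 bases): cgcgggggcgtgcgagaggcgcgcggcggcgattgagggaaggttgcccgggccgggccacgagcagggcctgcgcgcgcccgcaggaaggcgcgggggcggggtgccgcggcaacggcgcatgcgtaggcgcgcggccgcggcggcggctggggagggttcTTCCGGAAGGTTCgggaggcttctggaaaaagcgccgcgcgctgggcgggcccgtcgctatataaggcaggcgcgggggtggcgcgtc

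A promoter match is a description and not evidence of binding. HSF1 mRNA itself measured 41.7, 35.2 and 32.6 FPKM in sh-Ptbp1-3d, then 43.9, 47.2 and 53.7 FPKM at day 7, a log2 fold change of 0.40 that did not pass (limma adjusted p = 0.0203). HSF2 was at 2.505 and 2.55 FPKM in these groups. Of the 5 tested heat shock factors and regulators, 1 fell, HSBP1, which binds and inhibits the HSF1 trimer, at -0.48 (adjusted p = 0.00159), and 0 rose, against a background of 35.8% passing.

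Members at the floor of the assay were accounted for as well. DNAJB8, DNAJC5B and CCT8L2, genes of testis or other restricted tissues, were listed at 0 in all 9 libraries. HSPB2, HSPB3 and DNAJC5G were above 0 in 1 library each, at 0.0948, 0.0788 and 0.026 FPKM, and HSPB9 and HSPA12B reached at most 0.209 and 0.159 FPKM. Without read counts no upper limit can be given for these. Many abundant chaperones, among them HSPA8, HSP90AB1, HSPD1 and HSPE1, have processed pseudogenes in the genome, and how the deposited values divided shared reads is not given in the sources used here.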

How the data were processed

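Total RNA of U251 cells was sequenced by the authors, who deposited FPKM values per gene for 9 libraries; the labels' processing notes name HISAT2 and GRCh38, and the counting program and versions are not given in the sources used here. A deposited annotation of assembled loci holds no measurement and was not used, and 0 columns were left without a sample. Whole reads could not be recovered (at most 0.766% of low value ratios met a step), so no count test was run and precision rests on the spread of 3 libraries. Nothing says that libraries of a group came from separate cultures, so the p-values may measure technical spread.

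log2(FPKM + 0.1) was fitted, for genes whose mean reached 0.1 FPKM, with limma 3.58.1 (R 4.3.3), 9 libraries and 3 groups in one model, with an intensity trend, two-sided, Benjamini-Hochberg over 15551 genes; fold changes on this scale understate those of low genes. Calls used a false discovery rate of 0.05 for day 3 and 0.01 for day 7, and a fold of 2 as a second count. Scripts were tested on simulated data. The members, lists, thresholds and compartments were chosen with earlier results of these data known. Genes set for naming were 25 members of all classes, those past both thresholds, the largest change in each comparison and the most abundant member of each class; others named in the text were chosen after their values were seen. HSPA1A and HSPA1B were also summed. One blood marker of the lists is not reported here. Same-numbered libraries did not deviate together (r of -0.03 to 0.05 over 9 pairs), so the numbers were not used as pairs. Alternatives were other pseudocounts, filters and scalings, 2 groups alone, the replicate number as a block, no trend, and leaving out libraries. Figures were drawn with matplotlib 3.10.9 (Python 3.11.15).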

Additional observations from a re-analysis of the deposited data

How the results depend on the processing

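The calls at day 7 held their direction in all alternatives run; of the members that passed, 24 of 34 (day 7 against day 3 of the knockdown) and 26 of 35 (against sh-Luci-3d) passed in every one, and 15 and 14 others passed in at least one. At day 3 the count of 0 moved to 3 without sh-Luci-3d replicate 3 and to 1 without that library and sh-Ptbp1-3d replicate 3, an alternative chosen after seeing the data. Asking for a 2-fold change cut the counts from 34 to 4 and from 35 to 5. Leaving out each library in turn gave 0 to 3, 27 to 44 and 26 to 42 members in the 3 comparisons, 7 to 8 TRiC subunits lower, 11 to 18 J-domain genes higher and 12 to 17 others lower. Over all 15551 genes tested, the same fits gave 0 to 986, 4242 to 6747 and 4320 to 6207 genes, so the member counts moved with the background. TPM shifted the median of all genes from 0.09 to 0.20 and the split from 16 higher and 18 lower to 21 and 14, and from 17 and 18 to 22 and 14 against sh-Luci-3d; the cause was not tested. With the replicate number as a block, which the labels do not describe as a pairing, the counts were 0, 31 and 33. Over all genes tested, 0, 5322 and 5390 passed with the block, and 5854 and 5775 passed in TPM in the comparisons with day 7. Sequencing depth is unknown, so counting error could not be given, and low members such as HSPA6 are the least certain. Among members that did not pass, 25 changed sign in some alternative at day 3, 7 from day 3 to day 7 and 11 against sh-Luci-3d.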
